A study of Mus musculus with 6 samples.

Results

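Early response genes are transcribed within minutes of a growth factor, stress or inflammatory signal, from factors already present in the cell, and their short-lived transcripts fade soon after the signal ends. Signals through the RAS-ERK cascade reach them mainly through serum response factor (SRF) and its ETS-family partners, and signals through cyclic AMP and calcium mainly through CREB. The 10 genes described here were picked by name from this class, after the Mock and HIF-1α-KD values of these same libraries had been seen. They comprise the zinc finger factors Egr1, Egr2 and Egr3, the orphan nuclear receptors Nr4a1, Nr4a2 and Nr4a3, the immediate early response genes Ier2, Ier3 and Ier5, and the antiproliferative gene Btg2. All 10 were found among the 22880 genes of the deposited table, and 8 of them had enough reads to be among the 12014 genes tested. Because the comparison of Mock with HIF-1α-KD cells served to pick them, their differences between the groups are given as a description without a test.

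The RNA came from MC-38, a mouse colon adenocarcinoma line, grown as orthotopic tumors in the cecum wall of C57BL/6J mice and sorted as living cells that carried GFP and lacked CD45, found on leukocytes, and CD31, found on endothelium. HIF-1α-KD cells carried a knock-down of HIF-1α and Mock cells a mock knock-down, both transduced with pLKO.1-puro and neither passaged in vivo. The host tissue kept its own HIF-1α. There were 3 Mock and 3 HIF-1α-KD libraries, and since neither the labels nor the methods used here say whether each came from a separate tumor, p-values measure the spread between these libraries. The labels give no age of the mice. Tumors were digested with enzymes in the warm before the sort, a step of tissue handling that is known to induce early response genes in many cell types.

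Between 19845791 and 30809327 reads per library fell on genes, with the most in HIF-1α-KD replicate 1. These totals were recovered from the normalized counts and are approximate, since whole numbers were checked only up to 300 reads. Hif1a, the targeted gene, had normalized counts (reads divided by one factor per library) of 6914, 5424 and 4945 in Mock against 697.3, 3142 and 1928 after the knock-down. The difference on the log2 scale, HIF-1α-KD minus Mock, called log2 fold change from here on, was -1.82 (standard error, SE, 0.46, adjusted p by limma = 0.219), without overlap of the groups, and -1.21 without HIF-1α-KD replicate 1. Of 7 markers of colon epithelium, 3 stayed under 1 FPKM (reads scaled by transcript length and library size) in all libraries, so the labelled epithelial origin was hardly visible in the RNA. Their summed level was 13.2 FPKM in Mock replicate 3 and between 1.34 and 2.76 FPKM in the other libraries. The summed level of 9 leukocyte markers was 98.2, 109 and 146 FPKM in Mock against 88.5, 257 and 425 FPKM after the knock-down, although the sort was set against CD45. Cd74 and Lyz2 made up most of this sum, with 178 FPKM of Cd74 in HIF-1α-KD replicate 2 and 295 FPKM of Lyz2 in replicate 3, while 5 of the 8 tested leukocyte markers had a log2 fold change below 0 (median -0.13). Markers of fibroblasts and pericytes, led by Dcn, summed to between 544 and 973 FPKM in Mock and to between 420 and 710 FPKM after the knock-down. Of these 6 markers, however, 4 had a log2 fold change above 0 and 2 one below 0 (median 0.18). Markers of endothelium, led by Cdh5, summed to between 5.44 and 6.36 FPKM in Mock and to between 3.83 and 5.40 FPKM after the knock-down. Of the 3 tested, Cdh5 was lower and 2 had a log2 fold change above 0. Of the 23 markers of other cell types listed, 18 were tested and 0 had an adjusted p-value under 0.05 in limma (0.391% of all tested genes). At an unadjusted p-value under 0.05, 1 (Cdh5) was lower and 3 were higher, where 5.69% and 7.04% of all tested genes were. In bulk RNA of this kind, fewer cells with a transcript and less of it per cell cannot be told apart.

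The sequence before the transcription start carried sites of the signal-dependent factors in part of the genes. RefSeq promoters of GRCm38.p6 were matched by symbol for 7 of the 10 genes (Egr2, Nr4a1, Nr4a2, Nr4a3, Ier3, Ier5 and Btg2), at 11 start sites, of which 5 were those of Egr2. The 250 bases before each start were searched on both strands. The letters TGACG, the core of the cyclic AMP response element to which CREB binds, were found for 5 of the 7 genes (Egr2, Nr4a1, Nr4a2, Nr4a3 and Btg2) and in 17.8% of all 32851 RefSeq windows of this length. Nr4a1, Nr4a2 and Nr4a3 held 4 copies each. The following windows show these copies in capitals, in the NR4A genes with enough reads to be tested, Nr4a1 and Nr4a2, and in Btg2, which holds the whole palindrome. They lie at chr15:101266596-101266845 (plus strand), chr2:57124004-57124253 (minus strand) and chr1:134079156-134079405 (minus strand), with no annotated exon inside, and the Nr4a1 window lies within the annotated gene, between exons of its longer transcripts.
Nr4a1: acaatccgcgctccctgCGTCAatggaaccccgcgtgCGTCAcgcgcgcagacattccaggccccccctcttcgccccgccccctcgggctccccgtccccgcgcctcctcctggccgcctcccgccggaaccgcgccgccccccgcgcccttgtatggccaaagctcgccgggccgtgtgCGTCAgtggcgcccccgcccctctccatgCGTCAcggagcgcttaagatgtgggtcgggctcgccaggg
Nr4a2: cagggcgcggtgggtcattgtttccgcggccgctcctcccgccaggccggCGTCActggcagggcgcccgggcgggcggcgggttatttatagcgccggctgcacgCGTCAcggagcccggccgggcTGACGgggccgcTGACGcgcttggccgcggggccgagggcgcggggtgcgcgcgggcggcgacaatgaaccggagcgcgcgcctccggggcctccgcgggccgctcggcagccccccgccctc
Btg2: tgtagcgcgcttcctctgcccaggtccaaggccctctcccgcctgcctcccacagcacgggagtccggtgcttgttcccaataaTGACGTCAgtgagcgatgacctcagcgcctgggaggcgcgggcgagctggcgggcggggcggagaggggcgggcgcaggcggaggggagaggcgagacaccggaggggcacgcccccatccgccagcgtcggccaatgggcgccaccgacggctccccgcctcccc

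The palindrome TGACGTCA, which contains TGACG on both strands, was found in 1.55% of all windows and among these 7 genes only in Btg2. The CArG box, the site of SRF, was found in 1.47% of all windows and among the 7 genes only in Egr2. The windows of Egr2 held 2 such boxes at different positions, one of them in a window without TGACG. The other lay 62 bases before its nearest start and next to a copy of TGACG, as the following 30 bases show (chr10:67537793-67537822, plus strand, with the CArG box and the copy of TGACG in capitals).
Egr2: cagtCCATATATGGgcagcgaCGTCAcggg

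The hypoxia response core ACGTG or GCGTG, to which HIF binds, was found for 6 of the 7 genes and in 38.6% of all windows. The EGR site GCGNGGGCG was found for 3 of the 7 (Nr4a1, Nr4a2 and Btg2) and in 4.7% of all windows, and the ETS core CCGGAA for 2 (Egr2 and Nr4a1) and in 12% of all windows. The NR4A site AAAGGTCA and the AP-1 site TGANTCA were found for 0 of the 7, against 1.34% and 6.75% of all windows, and TATAAA only for Nr4a2 (12.4% of all windows). The median GC content was 61.6% over the 11 windows of the members and 52.4% over all windows, which bears on the frequency of GC-rich letters. It was 74.4%, 80% and 73.2% in the windows of Nr4a1, Nr4a2 and Btg2, the genes with the EGR site. With 5 starts, Egr2 had more chances of a match than the other genes. These matches are letters in a window, and binding was not measured.

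Compact genes prevailed. Ier3 (ENSMUSG00000003541, chromosome 17, 35821684 to 35822923) spanned 1240 bases, Ier2 (ENSMUSG00000053560, chromosome 8, 84661331 to 84662852) 1522 bases and Ier5 (ENSMUSG00000056708, chromosome 1, 155096361 to 155099636) 3276 bases of GRCm38, where the median of the tested genes with an annotation was 24565 bases. Ier2 and Ier5 each had 1 annotated exon. Btg2 (ENSMUSG00000020423, chromosome 1, 134075170 to 134079120) spanned 3951, Egr1 (ENSMUSG00000038418, chromosome 18, 34859823 to 34864984) 5162, Egr3 (ENSMUSG00000033730, chromosome 14, 70077203 to 70082614) 5412 and Egr2 (ENSMUSG00000037868, chromosome 10, 67535475 to 67542188) 6714 bases. The NR4A genes were longer, with 17174 bases in Nr4a2 (ENSMUSG00000026826, chromosome 2, 57106830 to 57124003), 20527 in Nr4a1 (ENSMUSG00000023034, chromosome 15, 101254269 to 101274795) and 41295 in Nr4a3 (ENSMUSG00000028341, chromosome 4, 48045153 to 48086447). None of the 10 overlapped another annotated gene.

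Per length, Ier3 and Egr1 were the most abundant of the 10 transcripts in Mock cells. Ier3 had a level of 163 ± 19.6 FPKM (SD, n = 3), above that of 94.4% of the tested genes, and Egr1 one of 89.2 ± 13.8 FPKM (SD, n = 3), above 88.8%. Ier2 followed with 45.4 ± 10.9 FPKM (SD, n = 3) and Ier5 with 14.3 ± 1.88 FPKM (SD, n = 3). The Mock libraries of Ier3, Egr1, Ier2 and Ier5 did not overlap in this order, whereas those of Egr2 (9.22 ± 4.05 FPKM, SD, n = 3), Nr4a1 (5.27 ± 2.28 FPKM, SD, n = 3) and Btg2 (4.34 ± 1.73 FPKM, SD, n = 3) overlapped each other. Nr4a2 had a level of 1.43 ± 0.350 FPKM (SD, n = 3), and Nr4a3 and Egr3 were near the limit of detection, with 0.259 ± 0.245 and 0.125 ± 0.0207 FPKM (SD, n = 3).

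In HIF-1α-KD cells, 7 of the 8 tested genes had lower normalized counts than in Mock cells, and Nr4a2 was the exception. The difference ranged from 4.01-fold between the means for Ier3 to 1.41-fold for Ier5. The median log2 fold change of the 8 genes was -1.47, where that of all 12014 tested genes was 0.02. The groups did not overlap for 6 of the 8 (Egr1, Egr2, Nr4a1, Ier2, Ier3 and Ier5), and among all tested genes 8.75% were lower and 10.4% higher in this way. An adjusted p-value under 0.05 (limma, across all tested genes) was reached by 1 of the 8, Ier3, and by 0.383% of all tested genes in the lower and 0.00832% in the higher direction (0.391% in either). An unadjusted p-value under 0.05 was reached by 6 of the 8, all lower, and by 5.69% of all tested genes as lower and 7.04% as higher (12.7% in either direction). The balance of these shares moved with the scaling, from 846 higher and 683 lower genes here to 732 and 755 with TMM and to 1085 and 524 with library size alone. Nothing is read from these counts, since this comparison served to pick the genes. With HIF-1α-KD replicate 1 left out, the library in which 7 of the 8 genes had their lowest count, the median log2 fold change was -0.84, over 9 genes because Nr4a3 then passed the filter.

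**Figure D1:**
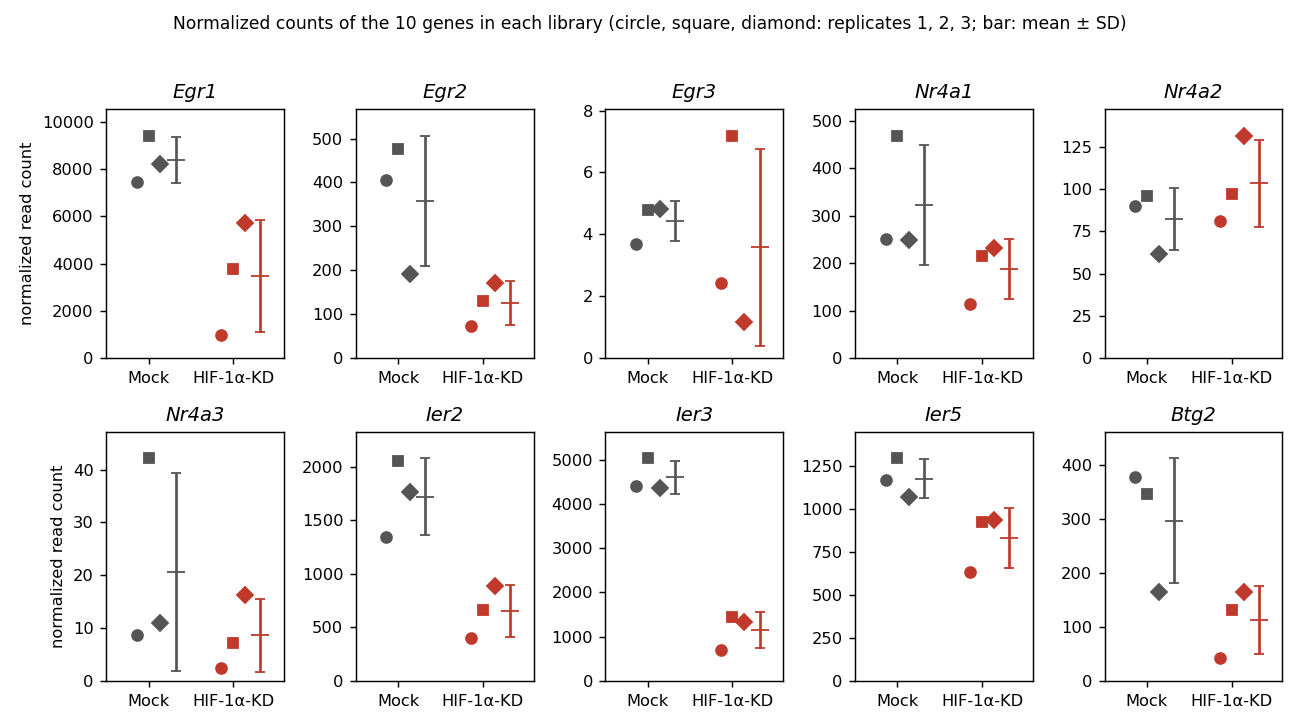
Normalized read count (y axis, linear, from 0, a scale of its own for each gene) of the 10 early response genes in the 3 Mock (grey) and 3 HIF-1α-KD (red) libraries, with circles, squares and diamonds for replicates 1, 2 and 3 and a bar for the mean ± SD. The groups do not overlap for Egr1, Egr2, Nr4a1, Ier2, Ier3 and Ier5, and the red circle of HIF-1α-KD replicate 1 is the lowest point of every gene but Egr3 and Nr4a2.

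EGR factors bind GC-rich sites in promoters and relay growth factor signals to later genes. Egr1 reached 7477, 9425 and 8239 normalized counts in Mock against 989.3, 3785 and 5712 after the knock-down. All Mock libraries were high, and the HIF-1α-KD libraries lay below them but were spread 5.77-fold, with replicate 1 far the lowest. The log2 fold change of Egr1 was -1.59 (SE 0.54), and -0.84 without HIF-1α-KD replicate 1. Egr2, which directs myelination in Schwann cells and is also made by activated lymphocytes and macrophages, reached 406.2, 476.6 and 190.9 normalized counts in Mock against 74.0, 130.7 and 172.1 after the knock-down. Mock replicate 3 was only 1.11-fold above the highest HIF-1α-KD library. The log2 fold change of Egr2 was -1.48 (SE 0.41). Egr3, a factor induced downstream of antigen receptors and neuronal activity, had 3, 5 and 4 reads in Mock and 3, 6 and 1 reads in HIF-1α-KD libraries, 22 in all, so a difference was not detectable at this depth. Egr4, the remaining family member, had 0 reads in the 6 libraries together.

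NR4A receptors act without a known hormone, so that their activity follows their amount. Nr4a1 (Nur77), known for its role in T cell receptor signaling and apoptosis, reached 251.1, 468.9 and 248.8 normalized counts in Mock against 115.0, 214.6 and 232.2 after the knock-down. Mock replicate 2 stood above the rest, and the nearest libraries of the 2 groups differed only 1.07-fold. The log2 fold change of Nr4a1 was -0.78 (SE 0.35), -0.46 without HIF-1α-KD replicate 1 and -0.48 without Mock replicate 2. The groups overlapped when the counts were scaled by library size alone or taken as FPKM. Nr4a2 (Nurr1), needed for dopamine neurons, reached 89.87, 95.7 and 61.61 normalized counts in Mock against 81.24, 97.12 and 131.7 after the knock-down. The groups overlapped, and its log2 fold change was 0.32 (SE 0.31), and between 0.13 (without Mock replicate 3 or HIF-1α-KD replicate 3) and 0.48 (without HIF-1α-KD replicate 1) with a library left out. Nr4a3 had 7, 44 and 9 reads in Mock and 3, 6 and 14 reads in HIF-1α-KD libraries. The groups overlapped, and most of its Mock reads came from replicate 2.

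The IER proteins lack the DNA-binding domains of the EGR and NR4A factors. Ier3 (IEX-1), which acts on apoptosis and on NF-κB and ERK signaling, reached 4406, 5029 and 4357 normalized counts in Mock against 690.1, 1433 and 1320 after the knock-down. This was the widest gap among the 10 genes, since the lowest Mock library lay 3.04-fold above the highest HIF-1α-KD library. The log2 fold change of Ier3 was -2.07 (SE 0.26). Leaving out any single library gave values between -2.26 and -1.74, while the adjusted p-value in limma, given without a reading from it, was 0.00826 without HIF-1α-KD replicate 1 and between 0.0514 and 0.11 without each of the others. Ier2, a nuclear protein linked to cell motility, reached 1346, 2056 and 1762 normalized counts in Mock against 403.8, 664.3 and 886.0 after the knock-down. The groups were 1.52-fold apart at their nearest libraries, and the log2 fold change of Ier2 was -1.45 (SE 0.29). Ier5, which assists the heat shock factor HSF1, reached 1165, 1292 and 1067 normalized counts in Mock against 631.4, 924.5 and 935.6 after the knock-down. Its difference was the smallest of the 6 genes without overlap, with a log2 fold change of -0.52 (SE 0.19), and of -0.33 without HIF-1α-KD replicate 1.

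Btg2 is a target of p53 that slows cell division and recruits the CCR4-NOT deadenylase to transcripts. It reached 379.2, 347.4 and 164.3 normalized counts in Mock against 43.43, 131.9 and 165.2 after the knock-down. Mock replicates 1 and 2 were high, and Mock replicate 3 lay at the level of HIF-1α-KD replicate 3, so the groups overlapped narrowly. The log2 fold change of Btg2 was -1.49 (SE 0.52), and -0.91 without HIF-1α-KD replicate 1.

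**Figure D2:**
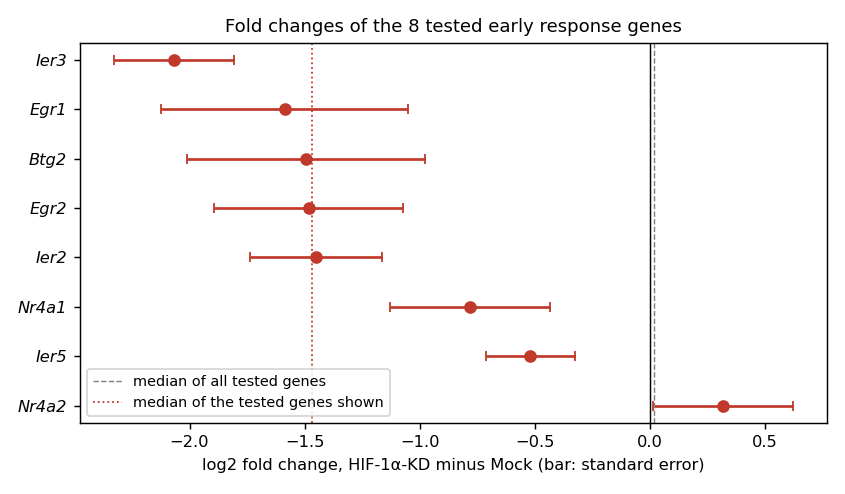
Log2 fold change (x axis, HIF-1α-KD minus Mock, bars for the standard error) of the 8 tested genes, with a dashed line at the median of all tested genes (0.02) and a dotted line at the median of the 8 (-1.47). Ier3 lies farthest to the left at -2.07, Ier5 is the nearest to 0 among the lower genes at -0.52, and Nr4a2 alone lies to the right of 0.

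Within a group, where the condition is the same, the genes varied together from library to library. Each library was expressed as its deviation from the mean of its group on the log2 scale, and the correlation of each pair of the 8 genes was computed over the 6 deviations. Pearson's r was above 0.5 for 28 of the 28 pairs, with a median of 0.83 and a range from 0.58 (Egr2 with Ier2) to 0.97 (Egr2 with Nr4a2). Over all pairs of tested genes, the median r was 0 and 22% were above 0.5. These values are a description over 6 points that share libraries and lose 2 degrees of freedom to the group means. They rested in part on HIF-1α-KD replicate 1, without which the median r of the 28 pairs was 0.55 and the range from -0.07 to 0.97. With another library left out, the median was between 0.80 and 0.91. The values over all pairs of tested genes were computed with the 6 libraries only, so these medians have no background of their own. Nr4a2, which did not share the difference between the groups (r = 0.14 with the mean profile of the 8 genes over the 6 libraries), followed the mean profile within the groups (r = 0.85).

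In Mock cells, replicate 2 was the highest library for 7 of the 8 genes and replicate 3 the lowest for 6. In HIF-1α-KD cells, replicate 1 was the lowest for 8 of 8 and replicate 3 the highest for 7. Hif1a was also lowest in HIF-1α-KD replicate 1, but higher in replicate 2 than in replicate 3. Among the HIF-1α-KD libraries, the summed leukocyte markers given above were also lowest in replicate 1 and highest in replicate 3. Single markers did not all follow this order. Cd74 was highest in replicate 2, Itgam and Csf1r were lowest there, and Cd79a was lowest in replicate 3. Among the Mock libraries, the leukocyte sum was highest in replicate 3 (146 FPKM), where 6 of the 8 genes were lowest. Mock replicate 3 was also the library with epithelial markers. The part of these markers in the values of the early response genes was not tested.

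**Figure D3:**
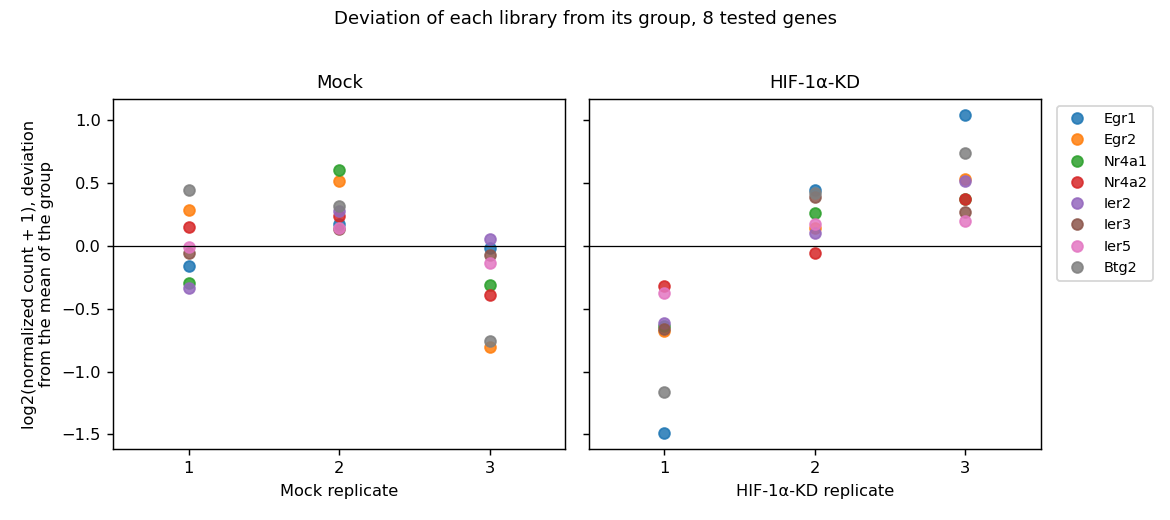
Deviation of each library from the mean of its own group (y axis, log2 of the normalized count plus 1) for the 8 tested genes (colors), by replicate of Mock (left) and HIF-1α-KD (right). All 8 genes lie below the line in HIF-1α-KD replicate 1, and 7 of the 8 are highest in HIF-1α-KD replicate 3.

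Among the 5 genes whose pattern over the 6 libraries was most like the mean profile of the 8 were Acy1 (r = 0.985), Zfp36 (r = 0.982), Fos (r = 0.978) and 3110039M20Rik (r = 0.978), with Jun in the next place. Over the deviations from the group means the 5 were Slc5a6, Prkch, Gm10311, Gm20939 and Acy1 (r between 0.997 and 0.998), so that only Acy1 was among the 5 in both. Fos and Jun, subunits of AP-1, were 48th and 59th over the deviations, with r of 0.969 and 0.966. Junb and Atf3 ranked lower, 368th and 986th over the 6 libraries (r = 0.833 and 0.715) and 1779th and 2279th over the deviations (r = 0.661 and 0.588). Hif1a was 135th over the 6 libraries with r = 0.899 and 1024th over the deviations with r = 0.778.

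The other early response transcripts known to be induced by digestion and sorting had log2 fold changes below 0 as well. None of 9 (Fos, Fosb, Jun, Junb, Jund, Atf3, Dusp1, Socs3 and Zfp36) had an adjusted p-value under 0.05 in limma, whereas 8 had an unadjusted p-value under 0.05, all in the lower direction, and the groups did not overlap for 7 (5.69% and 8.75% of all tested genes were lower by these rules). DESeq2 on the recovered reads called 7 of the 17 tested genes of the handling list and 2.36% of all tested genes. These calls are in either direction, and the list also holds the heat shock genes. The median log2 fold change of the 9 early response genes was -1.47, and their summed level was 828, 1121 and 615 FPKM in Mock against 112, 363 and 427 FPKM after the knock-down. Fos reached 9478, 11390 and 5560 normalized counts in Mock against 343.4, 3343 and 4210 after the knock-down, and its log2 fold change was -2.32 (SE 0.82, adjusted p by limma = 0.324). Jun had one of -1.13 (SE 0.33, adjusted p by limma = 0.261), Junb of -1.30 (SE 0.43, adjusted p by limma = 0.303) and Atf3 of -0.81 (SE 0.55, adjusted p by limma = 0.579). Without HIF-1α-KD replicate 1, the values were -1.17 for Fos, -0.71 for Jun, -0.93 for Junb and -0.36 for Atf3. Without HIF-1α-KD replicate 3, they were -2.97, -1.38, -1.46 and -1.45 in the same order.

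Heat shock transcripts, which the same handling is known to raise, lay on both sides of 0. Of 9 listed, 8 were tested and 0 had an adjusted p-value under 0.05 in limma, with 1 lower and 2 higher at an unadjusted p-value under 0.05 (5.69% and 7.04% of all tested genes). Their median log2 fold change was 0.15, and their summed level was 2791, 2913 and 3006 FPKM in Mock against 3428, 3037 and 3522 FPKM after the knock-down. The most abundant, the mainly constitutive chaperone Hspa8, which made up most of this sum, and Hsp90aa1, had log2 fold changes of 0.09 (SE 0.16, adjusted p by limma = 0.835) and 0.22 (SE 0.16, adjusted p by limma = 0.587). The stress-inducible Hspa1a, Hspa1b and Dnajb1 were named after their values were seen. Hspa1a had a log2 fold change of -1.07 (SE 0.47, adjusted p by limma = 0.395), limited by depth with 105 reads in all. Hspa1b had one of -0.56 (SE 0.28, adjusted p by limma = 0.46), -0.84 without Mock replicate 1 and -0.36 without Mock replicate 2. Dnajb1 had one of -0.70 (SE 0.20, adjusted p by limma = 0.258). The groups did not overlap for Hspa1a and Dnajb1. In the other direction, Hsph1 and Dnaja1, chaperones that heat also induces and likewise named after their values were seen, had log2 fold changes of 0.98 (SE 0.22, adjusted p by limma = 0.161) and 0.45 (SE 0.14, adjusted p by limma = 0.276), both without overlap. The part of handling in the values of the 10 genes was not tested.

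Of 51 genes that resemble, partner or control the 10, listed from general knowledge, 48 were tested, and 1 was lower and 0 were higher at an adjusted p-value under 0.05 (limma), against 0.383% and 0.00832% of all tested genes. At an unadjusted p-value under 0.05, 5 were lower and 1 was higher, against 5.69% and 7.04% of all tested genes. The median log2 fold change of the 48 was -0.06. The lower gene was Cdkn1a, the cell cycle inhibitor p21 and, like Btg2, a target of p53. Cdkn1a reached 1735, 1238 and 2119 normalized counts in Mock against 604.0, 484.4 and 544.1 after the knock-down, and its log2 fold change was -1.61 (SE 0.21, adjusted p by limma = 0.0245). Its adjusted p-value in limma stayed under 0.05 without Mock replicate 2 (0.0433) or HIF-1α-KD replicate 1 (0.0406), and was between 0.0622 and 0.11 without each of the other 4 libraries. The log2 fold change was, for Trp53 itself, -0.01 (SE 0.17, adjusted p by limma = 0.991) and, for Mdm2, another target, -0.28 (SE 0.18, adjusted p by limma = 0.552).

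Among the relatives, Btg1 reached 7921, 5280 and 6967 normalized counts in Mock against 3721, 4258 and 3894 after the knock-down, without overlap (log2 fold change -0.75, SE 0.17, adjusted p by limma = 0.184). The log2 fold change of Ier5l was -0.32 (SE 0.39, adjusted p by limma = 0.777), -0.78 without Mock replicate 1 and -0.06 without Mock replicate 2. The EGR corepressors Nab1 and Nab2, which bind EGR proteins and limit their activity, had log2 fold changes of 0.43 (SE 0.16, adjusted p by limma = 0.333) and -0.13 (SE 0.20, adjusted p by limma = 0.83). The transcript of SRF, through which many early response genes are switched on, overlapped between the groups, at 760.8, 1225 and 1295 normalized counts in Mock against 1273, 922.1 and 1041 after the knock-down (log2 fold change 0.01, SE 0.23, adjusted p by limma = 0.994). The 6 tested genes of SRF and its cofactors and the 6 of CREB and its coactivators had median log2 fold changes of 0.16 and -0.13, and the 14 of the RAS-ERK-RSK cascade one of -0.07. None of these 26 passed an adjusted p-value of 0.05 in limma, and 1 (Map2k1, which encodes MEK1 and is named here after its value was seen) had an unadjusted p-value under 0.05, where 12.7% of all tested genes had one, at 4219, 3612 and 3505 normalized counts in Mock against 1765, 2398 and 2395 after the knock-down (log2 fold change -0.80, SE 0.17, adjusted p by limma = 0.139). Zfp36, whose product tristetraprolin speeds the decay of early response transcripts, reached 2370, 3889 and 2256 normalized counts in Mock against 367.6, 1204 and 1330 after the knock-down (log2 fold change -1.71, SE 0.46, adjusted p by limma = 0.238, and -1.12 without HIF-1α-KD replicate 1). Transcripts do not show the activity of kinases or of phosphorylated factors, which was not measured.

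**Figure D4:**
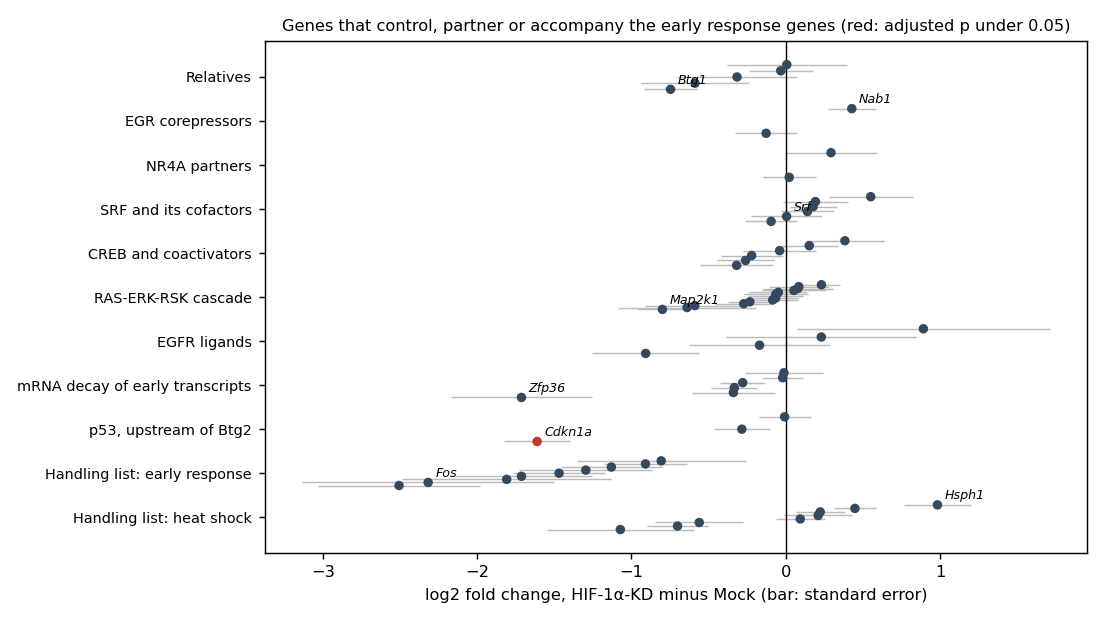
Log2 fold change (x axis, HIF-1α-KD minus Mock, bars for the standard error) of each tested gene of the groups that resemble, partner or control the early response genes, and of the handling list in its early response and heat shock parts (y axis; red for an adjusted p under 0.05 in limma). Cdkn1a is the red point at -1.61, and the genes of SRF and CREB lie between -0.32 and 0.55. The early response genes of the handling list lie between -2.51 and -0.81, while the heat shock genes lie on both sides of 0.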

How the data were processed

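RNA of sorted MC-38 cells was compared between 3 Mock and 3 HIF-1α-KD libraries. Per the study's methods, read trimming by the authors was followed by alignment in STAR, counting in featureCounts and a DESeq2 comparison. These methods name GRCh38, while the submitters' processing notes name GRCm38 and edgeR. The authors deposited normalized counts, a signal obtained by dividing each count by one factor per library, and FPKM values, scaled by transcript length and library size. The table also holds the authors' own fold changes, p-values and cluster labels, which were not used.

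Reads were recovered as whole multiples of the smallest step of each library. All values up to 300 reads (100%) lay within 0.1 of a whole number. Genes were filtered with filterByExpr of edgeR 4.0.16 (minimum count of 10). The planned test, limma 3.58.1 (trended prior) applied to log2 normalized counts with a pseudocount of 1, was two-sided and adjusted across 12014 genes by the method of Benjamini and Hochberg. It was tested on simulated data. edgeR and DESeq2 1.42.0 on the recovered reads were alternatives, beside other scalings, pseudocounts, filters and left-out libraries. Positions came from GENCODE M21 by Ensembl identifier, and promoters from RefSeq (GRCm38.p6). Whether counting used strand is not given in the sources used here.

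The 10 genes and all gene lists were chosen with earlier results of these data known. The genes named are the 10, Hif1a, the genes of the controlling list at an adjusted p-value under 0.05 (the 4 with the smallest p-value had there been none), Egr4, Ier5l, Btg1, Nab1, Nab2 and Srf, then Fos, Jun, Junb, Atf3 and the 2 heat shock genes with the largest mean, and the 5 genes most like the 10 in each of 2 measures, of which 1 is not reported here. Trp53, Mdm2, Map2k1, Zfp36, Hspa1a, Hspa1b, Dnajb1, Hsph1, Dnaja1, Cd74, Lyz2, Itgam, Csf1r, Cd79a, Dcn and Cdh5 fall outside this rule and were chosen after their values were seen. The replicate numbers were not taken as pairs. R 4.3.3, Python 3.11.15, pandas 2.3.3, numpy 2.4.6 and matplotlib 3.10.9 were used.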

Additional observations from a re-analysis of the deposited data

How the results depend on the processing

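The direction of the log2 fold change of each of the 8 tested genes held in every alternative run. Higher and lower genes at an adjusted p-value under 0.05 numbered 1 and 46 with limma, 0 and 47 with edgeR (1493 at an unadjusted p-value under 0.05), and 96 and 187 with DESeq2, which called 3 of the 10 (Egr2, Ier2 and Ier3), 4 of the controlling genes and 7 of the handling genes. With a block for replicate number, limma called 0 higher, 0 lower, 0 of the 10 and 0 of the controlling genes (1324 genes at an unadjusted p-value under 0.05). No sign of pairing by number was seen, as same-numbered deviations correlated at -0.14, -0.12 and 0.02 and 0 of 6 libraries were closest to their own number. With 3 libraries per group, a weak pairing could be missed. With each library left out in turn, limma called between 0 and 6 higher and between 0 and 32 lower genes (1026 to 1563 at an unadjusted p-value under 0.05), between 0 and 1 of the 10, of the controlling genes and of the handling genes, and the median log2 fold change of those of the 10 that were tested (8 or 9) was between -1.73 and -0.84, the weakest without HIF-1α-KD replicate 1. Of the 8 tested, between 6 and 7 were lower without overlap when a library was left out, where 12.2% to 15.3% of all tested genes were, and 5 under library size alone or FPKM, where 6.78% were. Of the 5 genes most like the 10, 1 was shared with the list made from deviations from group means. Egr3 and Nr4a3, with 22 and 83 reads, are limited by depth.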
